A study of Mus musculus with 9 samples.

Results

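Circular RNAs, called rings here, form when a splice donor at the end of an exon is joined backwards to an acceptor at the start of the same or an earlier exon, so the product has no free ends. One gene can yield several rings, because different donors and acceptors of the same transcript can be paired, and rings that share one of these sites differ only in where the other end lies. Rings come mostly from genes whose linear transcripts are made in the same cells, and they outlast linear RNA because exonucleases need a free end. Sequencing of ribosomal-RNA-depleted RNA counts a ring by the reads that cross its back-splice junction.

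The rings described here come from the 149 host genes with at least 10 different rings in mouse liver, out of 3800 genes that were named alone as the host of a ring. These 149 hosts gave 2092 of the 11312 rings listed and 218202 of 910594 back-splice reads, which is 24.0% of the reads. Membership rests on the number of rings listed over all libraries and on no difference between groups. The other single-named hosts gave 8843 rings, and 377 rings had no gene name or more than 1 and were not used to count rings per host. All 149 hosts are protein-coding genes in GENCODE. At the edge of the rule, 31 hosts had 10 rings, with a median of 525 reads, and 44 hosts just outside it had 9 rings, also with a median of 525 reads. Zfp148, Arhgap32 and Abca1 had the most reads among the hosts with 10 rings (3704, 1724 and 1290 reads), and Ttc39c, Tasp1 and Elf2 among the hosts with 9 (8436, 5203 and 4921 reads).

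The livers came from wild-type C57 BL6 mice of 8 weeks and 20 g on average, in 3 groups of 3 libraries. In the dmPGE2+APAP group, mice received 300 µg/kg of dmPGE2, a stable analog of prostaglandin E2, by intraperitoneal injection 1 h before 500 mg/kg of acetaminophen (APAP), which injures hepatocytes through a reactive metabolite. The APAP group received the 500 mg/kg of APAP, and the control group saline. Livers were taken 6 h after APAP. The labels do not say whether the libraries of a group came from separate mice, so a p-value here speaks of library-to-library spread, which may be technical. The count columns of the control libraries carry another group code than the labels and were assigned by elimination, since the other 2 codes match the treated groups.

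The dmPGE2+APAP libraries held 120531, 99102 and 114791 back-splice reads, the APAP libraries 108667, 109453 and 69268, and the control libraries 154449, 129971 and 4362. The library control 3 therefore stands apart by depth, and results that rest on it are also given without it. All 5 hepatocyte markers examined were listed as hosts, and Cps1, Alb and Aass were among the 149. The 5 markers of sinusoidal endothelium were also all listed, with a summed level of 1429 to 1766 CPM in dmPGE2+APAP, 780 to 2172 CPM in APAP and 1693 to 1962 CPM in control livers, and so were 3 of 5 lymphocyte markers. Of 5 stellate cell markers none was listed, of 5 Kupffer cell markers only Adgre1, and of 5 cholangiocyte markers only Pkhd1. Being listed can rest on a single library. The hepatocyte marker Cyp2e1 and the endothelial marker Flt1 were read in APAP 1 alone, and the lymphocyte marker Ikzf1 in APAP 3 alone. Levels are given as CPM, counts per 1e6 back-splice reads of the library. In bulk liver, fewer cells of a type and less RNA per cell cannot be told apart.

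The shared sites of the most reused hosts are shown by their back-splice junctions, the last 20 bases of the donor exon followed by the first 20 bases of the acceptor exon, read 5′ to 3′ from GENCODE M21 transcripts on GRCm38. Capitals mark the exon edge that several rings of the host share. In Vwa8, a gene on chromosome 14 for a mitochondrial ATPase with a von Willebrand domain, 8 rings ended in different donors and began at the same acceptor, the first base of exon 13 (chr14:78982236-78982236, plus strand). They are listed from the most to the fewest reads, with the donor exon in the name.
Vwa8 exon 14 to 13: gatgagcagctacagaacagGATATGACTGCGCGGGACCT
Vwa8 exon 21 to 13: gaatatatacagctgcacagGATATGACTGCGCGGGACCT
Vwa8 exon 20 to 13: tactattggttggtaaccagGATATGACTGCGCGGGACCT
Vwa8 exon 16 to 13: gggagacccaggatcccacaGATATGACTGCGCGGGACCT
Vwa8 exon 17 to 13: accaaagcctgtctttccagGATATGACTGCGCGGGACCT
Vwa8 exon 22 to 13: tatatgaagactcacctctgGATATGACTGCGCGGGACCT
Vwa8 exon 15 to 13: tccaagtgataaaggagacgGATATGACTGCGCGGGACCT
Vwa8 exon 19 to 13: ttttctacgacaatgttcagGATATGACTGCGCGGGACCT
The right-hand side is the same in all 8, and the left-hand side changes with the donor exon. These 8 rings held 1536 reads, 32.4% of the reads of Vwa8, and the ring of exons 13 to 14 alone held 696.

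The opposite arrangement was seen in Cps1, the gene on chromosome 1 for the mitochondrial enzyme that starts the urea cycle. There 8 rings shared 1 donor, the last base of exon 21 (chr1:67180189-67180189, plus strand), and began at different acceptors. A selection of 6 of them is shown.
Cps1 exon 21 to 12: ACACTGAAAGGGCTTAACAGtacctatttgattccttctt
Cps1 exon 21 to 17: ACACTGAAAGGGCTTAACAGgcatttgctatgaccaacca
Cps1 exon 21 to 18: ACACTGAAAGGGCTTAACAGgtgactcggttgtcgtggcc
Cps1 exon 21 to 14: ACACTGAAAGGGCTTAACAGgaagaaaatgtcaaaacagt
Cps1 exon 21 to 10: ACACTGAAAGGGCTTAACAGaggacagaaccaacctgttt
Cps1 exon 21 to 19: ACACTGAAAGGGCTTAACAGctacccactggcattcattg
Here the left-hand side is constant. The 8 rings held 112 reads, 12.98% of the reads of Cps1, so the site with the most rings was not the site with the most reads.

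Other much reused sites carried most of the reads of their host. They are shown by the most read ring on the site that runs between annotated coding exons.
Papola exon 15 to 2: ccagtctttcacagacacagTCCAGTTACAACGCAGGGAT
Gigyf2 exon 8 to 4: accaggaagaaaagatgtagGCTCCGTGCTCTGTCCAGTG
Psd3 exon 9 to 6: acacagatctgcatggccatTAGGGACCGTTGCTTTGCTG
Lonp2 exon 11 to 9: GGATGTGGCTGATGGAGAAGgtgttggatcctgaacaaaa
In Papola, which encodes the nuclear poly(A) polymerase, 9 of 10 rings began at exon 2 (chr12:105799651-105799651, plus strand) and held 72.3% of the reads. In Gigyf2, a translational repressor that acts with a cap-binding protein, 7 rings began at exon 4 (chr1:87364104-87364104, plus strand) with 97.97% of the reads. The acceptor of Psd3, an exchange factor for the small GTPase Arf6, was used by 7 rings with 89.98% of the reads (chr8:67908889-67908889, minus strand). Lonp2, the peroxisomal Lon protease, had its 7 rings on a shared donor in exon 11 with 74.8% of the reads (chr8:86673069-86673069, plus strand).

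The number of rings per host had a median of 12, with quartiles of 11 and 16. Vwa8 had the most, 41 rings, followed by Ehmt1, a histone H3 lysine 9 methyltransferase, and Cps1 with 33 each. Dpyd, the first enzyme of pyrimidine breakdown, had 29 rings, and Man2a1, a Golgi mannosidase that trims N-glycans, had 23. Ash1l, a histone methyltransferase, Slc4a4, a sodium bicarbonate cotransporter, Ankhd1, an ankyrin-repeat protein, and Birc6, a very large ubiquitin-conjugating inhibitor of apoptosis, each had 22. Rabep1, an effector of Rab5 on early endosomes, had 21. The chromatin remodeler Chd2 had 20. The hosts thus include liver metabolism genes beside chromatin, traffic and RNA-binding genes.

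The 149 hosts were longer and had more exons than the others. Their gene length had a median of 126968 bases, against 57067 bases for the other hosts, and the largest annotated transcript a median of 23 exons, against 14. Reads per host had a median of 748, against 38. Across all 3800 hosts the number of rings followed the reads with a Spearman correlation of 0.72, and within the 149 with 0.38; genes are not independent replicates, and depth enters both quantities. Between the number of rings and of exons it was 0.23 within the 149. Within a single library, 47 of the 149 hosts (31.5%) reached 10 rings, so for most of them the count of 10 came from pooling libraries.

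Of the 2092 rings, 1961 were classed as exonic and 131 as intronic by the authors' table. Both ends lay on exon ends of 1 GENCODE transcript in 1882 rings (89.96%). None of these 1882 began in exon 1 and none ended in the last exon, which lack the acceptor or donor that a back-splice uses. An acceptor in exon 2 was used by 17.6% of these rings, against 28.7% in the other hosts. Among the leading rings, the ring with the most reads in each host, 28.0% began at exon 2. The rings spanned a median of 4 annotated exons (range 1 to 27). For 69.2% of them the table lists fewer exons than the annotation has between the ends, so the exon content inside a ring is not known from these values. The introns beside the leading rings were longer, with medians of 11041 bases upstream and 10495 bases downstream, against 6976 and 5502 bases for the other rings of the same hosts. These medians pool rings over hosts without pairing them within a host, and the difference was not tested.

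Most rings of these hosts shared a site with another. Of the 2092 rings, 1888 (90.2%) shared an acceptor or a donor with another ring of their host, against 69.3% of the rings of hosts with 2 to 9 rings. With more rings per host more sharing is possible, so this difference has no test. The 2092 rings were built from 1165 acceptors and 1266 donors. Both ends were shared in 883 rings, the acceptor alone in 552, the donor alone in 453, and neither in 204. Among the acceptors 657 were used by 1 ring, 284 by 2 rings and 224 by 3 or more, of which 48 by 5 or more. Of the donors 756 were used by 1 ring, 311 by 2 and 199 by 3 or more, of which 29 by 5 or more.

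Few of the possible pairings of a host's sites were seen. Where each acceptor is paired with every donor downstream of it, a median of 33.3% of the pairs was listed per host, with a range of 17.2% in Birc6 to 90.9% in Papola. Rings on a shared acceptor tended to step along the gene: among 811 neighbouring donors on a shared acceptor, 52.9% were in the next exon and 22.8% were 2 exons apart. Among 680 neighbouring acceptors on a shared donor the shares were 50.3% and 21.8%. Sites a few bases apart were rare, with 9 acceptor pairs within 10 bases, 7 of them exactly 3 bases apart, and 4 donor pairs. One such pair of acceptors is in Psd3, where ring novel_circ_0013786 (212 reads) begins 3 bases from the acceptor shown above. Exon 2 was the acceptor exon at several of the most reused sites, among them those of Zfp236 (8 rings, 85.3% of the reads), Tlk1 (7 rings, 97.5%) and Strn3 (7 rings, 91.3%). Zfp236 encodes a zinc finger protein, Tlk1 a kinase that acts on a histone chaperone, and Strn3 a scaffold of a phosphatase complex.

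**Figure D1:**
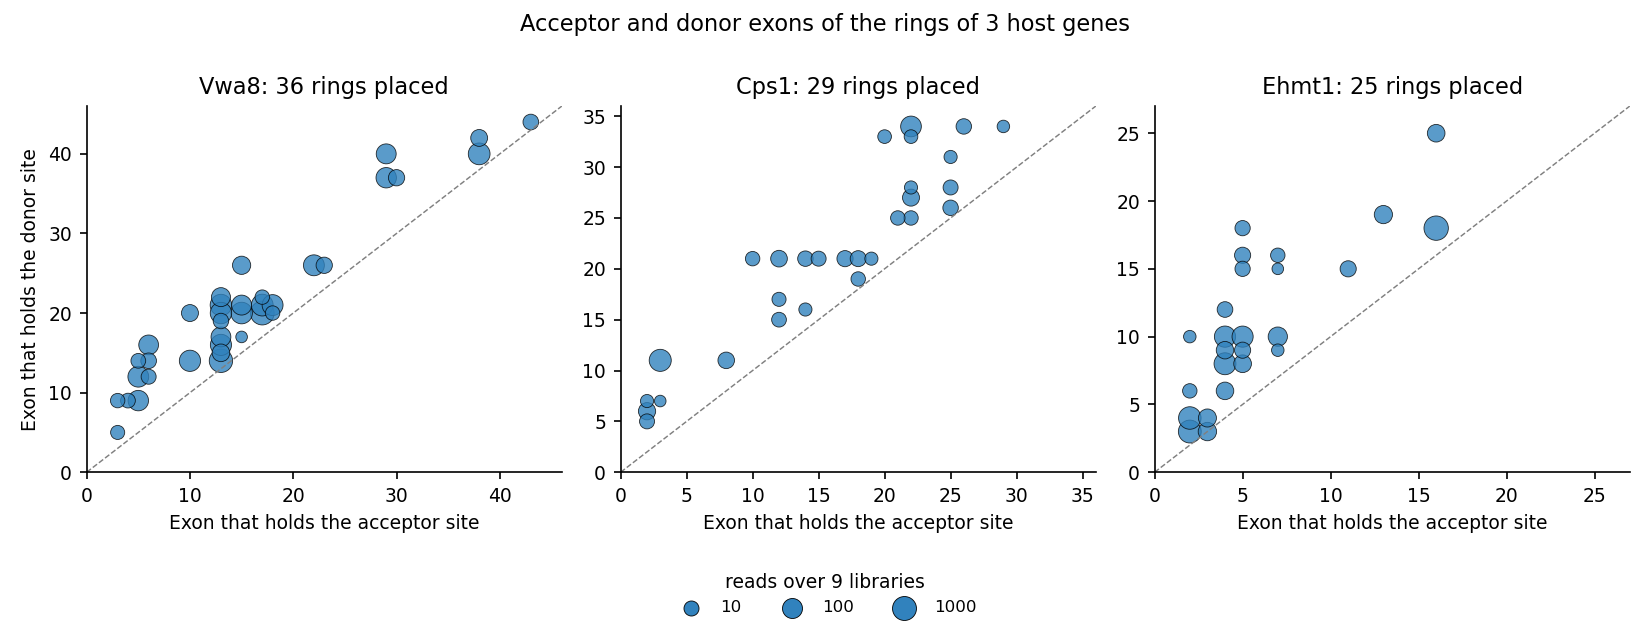
Exon that holds the donor site (vertical axis, exon number) against exon that holds the acceptor site (horizontal axis, exon number) for the rings of Vwa8, Cps1 and Ehmt1 that lie on the transcript with the most matches. Each point is 1 ring, its area grows with the log10 of its reads over 9 libraries, and the dashed line marks a single-exon ring; columns of points are shared acceptors, such as exon 13 of Vwa8 with 8 rings, and horizontal lines of points are shared donors, such as exon 21 of Cps1.

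Dominance of the leading ring varied widely. It held a median of 41.0% of the host's reads, with quartiles of 30.6% and 53.6% and a range of 13.3% to 98.03%. The second ring held a median of 17.3%. In 42 hosts the leading ring held over 50% of the reads, in 9 hosts over 80%, and in 34 hosts under 30%. In hosts with 5 to 9 rings the median was 52.0%, a difference that was not tested. The effective number of rings, the inverse of the summed squared shares, had a median of 4.005 and ran from 1.04 in Aass to 14.2 in Birc6. The leading ring lay on the host's most used acceptor in 88 hosts and on its most used donor in 59.

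**Figure D2:**
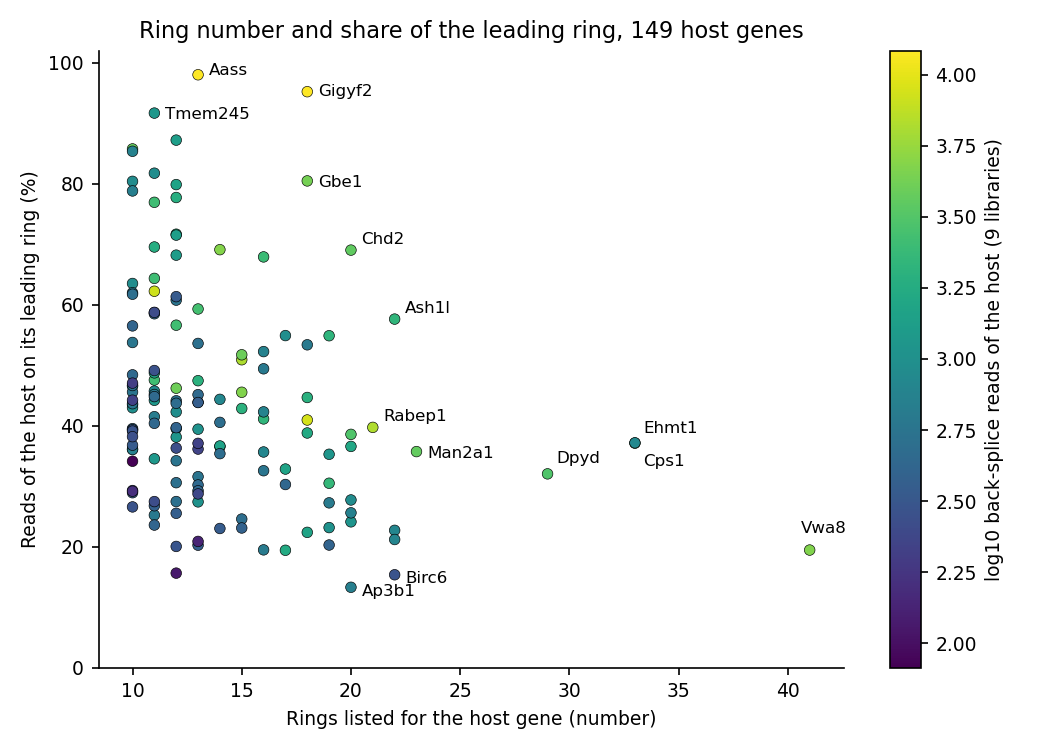
Share of a host's reads on its leading ring (vertical axis, %) against the number of rings listed for it (horizontal axis), 1 point for each of the 149 hosts, coloured by the log10 of the host's reads over 9 libraries. Aass and Gigyf2 sit above 95% with 13 and 18 rings, while Vwa8 (41 rings), Ap3b1 and Birc6 sit under 20%.

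At one end, single rings made up nearly all of a host's output. Aass, the enzyme of the first steps of lysine breakdown, had 13 rings and 12030 reads, of which the ring of exons 2 to 11 (chr6:23107140-23122737, minus strand) held 98.03%. That ring had 1681, 1033 and 1350 reads in the dmPGE2+APAP libraries, 1822, 1390 and 925 in the APAP libraries, and 1721, 1806 and 65 in the control libraries. Its share of the host was 97.8% ± 0.423 in dmPGE2+APAP, 97.5% ± 0.267 in APAP and 99.3% ± 0.688 in control livers (SD, n = 3 each). It led in all 9 libraries, the shallow control 3 included. In Gigyf2 the ring of exons 4 to 8, shown above, held 95.2% of 12123 reads. It had 1537, 1186 and 1338 reads in the dmPGE2+APAP libraries, 1393, 1419 and 886 in the APAP libraries, and 1997, 1746 and 43 in the control libraries. The groups overlapped once depth is considered, with shares of 95.4% ± 2.02, 95.8% ± 1.37 and 94.8% ± 1.06 in dmPGE2+APAP, APAP and control livers (SD, n = 3 each). The transmembrane protein gene Tmem245 (91.7% of 1144 reads), the insulin receptor gene Insr (87.2% of 1323) and the zinc finger gene Zfp148 (85.8% of 3704) followed. In Insr the leading ring is exon 2 alone (chr8:3258383-3258934, minus strand).

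Some hosts had 2 strong rings. Psd3 had 50.9% of its reads on the ring of exons 6 to 9 and 37.0% on the ring of exons 6 to 10, which begin at 1 acceptor. The first had 471, 340 and 395 reads in the dmPGE2+APAP libraries, 375, 445 and 189 in the APAP libraries, and 590, 508 and 11 in the control libraries. The second had 307, 292 and 288 reads in the dmPGE2+APAP libraries, 257, 274 and 193 in the APAP libraries, and 353, 448 and 0 in the control libraries. The first ring was ahead in every library except APAP 3. Rabep1 had 39.7% on exons 3 to 4 and 30.04% on exons 3 to 5, also from 1 acceptor. Bckdhb, a subunit of the branched-chain keto acid dehydrogenase, had 62.2% on exons 4 to 8 and 25.02% on exons 2 to 6. Ghr, the growth hormone receptor, had 41.0% and 36.4% of 8861 reads on 2 rings that share an acceptor (chr15:3544025-3551685 and chr15:3457930-3551685, minus strand).

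At the other end reads were spread over many rings. Vwa8 had 4746 reads, and its leading ring of exons 17 to 20 (chr14:79009164-79026077) held 19.5%. This ring had 106, 139 and 114 reads in the dmPGE2+APAP libraries, 77, 110 and 56 in the APAP libraries, and 183, 139 and 0 in the control libraries. The next ring, of exons 13 to 14, had 72, 60 and 117 reads in the dmPGE2+APAP libraries, 85, 111 and 21 in the APAP libraries, and 164, 66 and 0 in the control libraries. Both were read in every library except control 3. Ap3b1, a subunit of the AP-3 adaptor of lysosomal sorting, had 2 rings of 13.3% each, and Birc6 spread 299 reads with 15.4% on the first. Scp2, which makes a peroxisomal thiolase and a lipid carrier, and the carbohydrate kinase Fggy had 19.4% and 19.5%. In Ehmt1 the ring of exons 16 to 18 held 37.1% and led in all 8 libraries in which the host had at least 20 reads. In Cps1 the ring of exons 3 to 11 held 37.2% of 863 reads, with 41, 59 and 37 reads in the dmPGE2+APAP libraries, 42, 41 and 44 in the APAP libraries, and 25, 32 and 0 in the control libraries. The control libraries were lowest for this ring, although control 1 and control 2 were the deepest libraries.

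**Figure D3:**
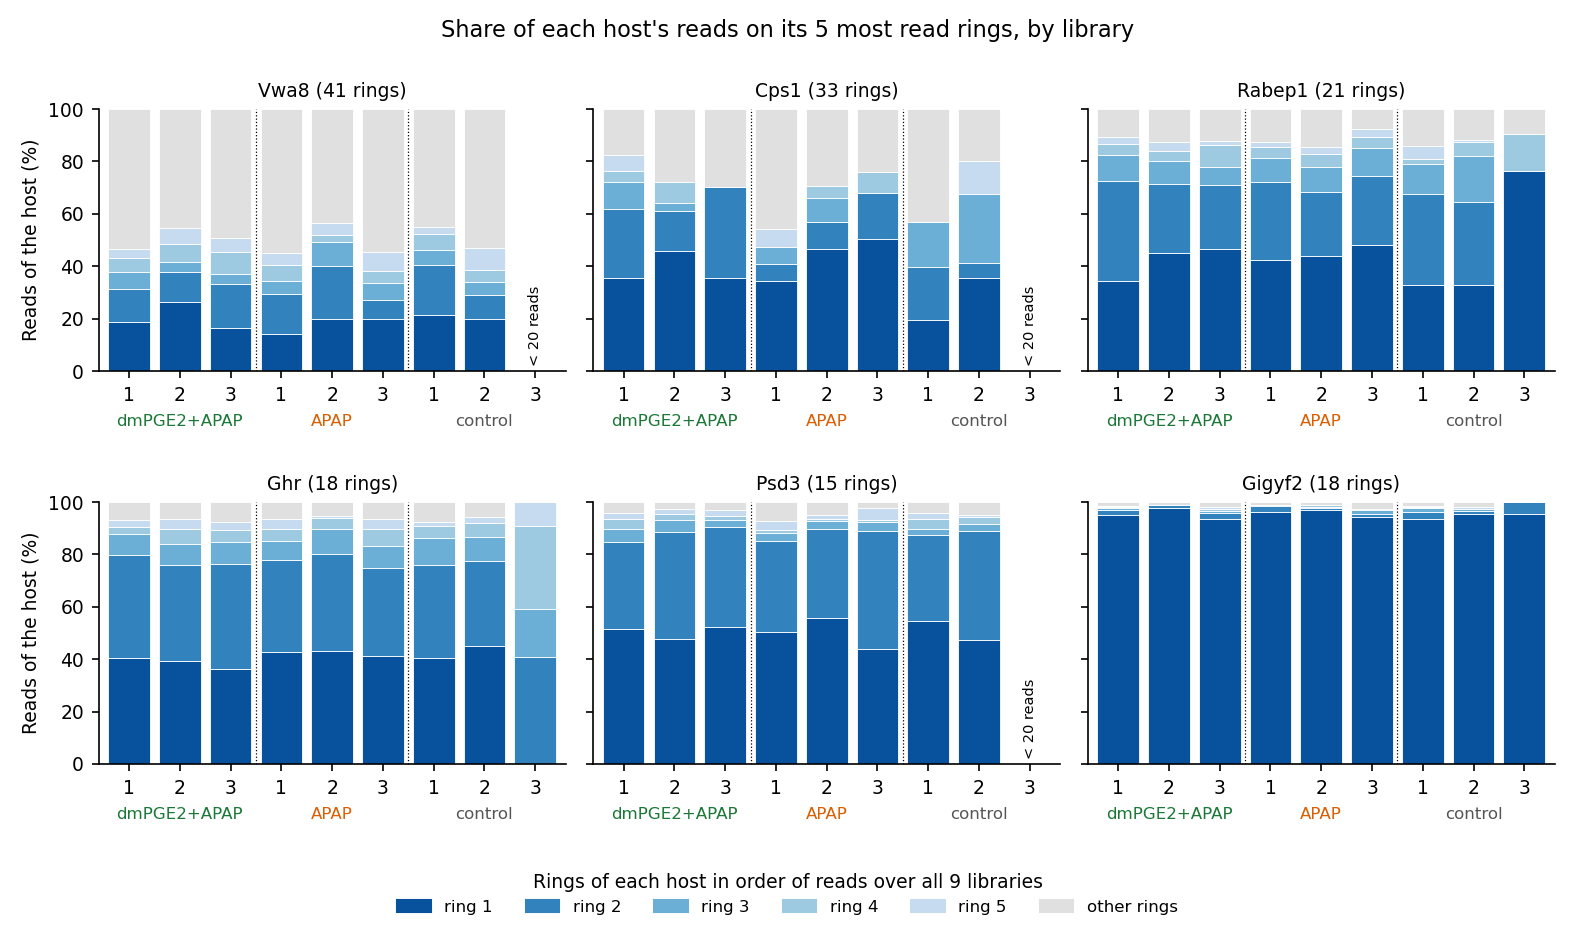
Share of a host's back-splice reads (vertical axis, %) on its 5 most read rings in each library (horizontal axis, replicates 1 to 3 of the dmPGE2+APAP, APAP and control groups) for 6 hosts; grey is all other rings, and libraries with under 20 reads of the host are left blank. Gigyf2 is nearly 1 colour in all 9 libraries, Psd3 has 2 large bands, and over 40% of Vwa8 lies outside its 5 most read rings in each library shown.

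The leading ring was mostly the same across libraries. Among 1144 pairs of a host and a library with at least 20 reads of it, the overall leader was also first in 928 (81.1%). In 62 hosts (41.6%) it was first in every such library. The overall leader was defined on reads summed over these same libraries, and ties counted as first, so part of this agreement is built in. With reads summed by group, 116 of 149 hosts (77.9%) had the same leader in all 3 groups. Among the 79 hosts with at least 200 reads in each group, a threshold chosen after the data were seen, 70 did. The other 9 were Ap3b1, Dock4, Ghr, Glt1d1, Mllt10, Phkb, Ralgapa2, Scp2 and Smarca2, named after their values were seen. In Ghr the leader's share was 38.7% in dmPGE2+APAP, 42.5% in APAP and 42.1% in control livers, and in dmPGE2+APAP livers the second ring had 39.0%. In Scp2, ring novel_circ_0009656 held 20.98% in dmPGE2+APAP, 23.1% in APAP and 13.9% in control livers. That ring was listed with 49, 58 and 43 reads in the dmPGE2+APAP libraries, 54, 36 and 21 in the APAP libraries, and 0, 71 and 2 in the control libraries, so the lower control share comes with the 0 in control 1.

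The groups overlapped in 3 measures taken over the 149 hosts. Their share of a library's reads was 23.9% ± 0.404 in dmPGE2+APAP, 23.8% ± 0.341 in APAP and 22.9% ± 2.36 in control livers (SD, n = 3 each; exact permutation test over 1680 arrangements, p = 0.861). The mean share of the leading ring was 45.1% ± 0.826, 46.7% ± 3.32 and 48.9% ± 8.24 in the same groups (p = 0.864, the same exact permutation test). At an equal depth of 881 reads from the 149 hosts, 359 ± 2.77, 344 ± 21.9 and 290 ± 107 of their rings were detected in dmPGE2+APAP, APAP and control livers (p = 0.371, the same exact permutation test). The wide control spread came from control 3, which had a leading share of 58.2% over the 11 hosts it could be computed for and 166 rings at that depth. Without control 3, the exact permutation p was 0.479 for the share of reads and 0.525 for the leading share. The ring number without control 3 was taken at the depth of 16191 reads that the other 8 libraries allow, and was 942 ± 65.1 in dmPGE2+APAP, 868 ± 199.6 in APAP (SD, n = 3 each) and 959 ± 62.7 in control livers (SD, n = 2; exact permutation p = 0.868). An exact test of 3 libraries against 3 cannot go below p = 0.1.

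**Figure D4:**
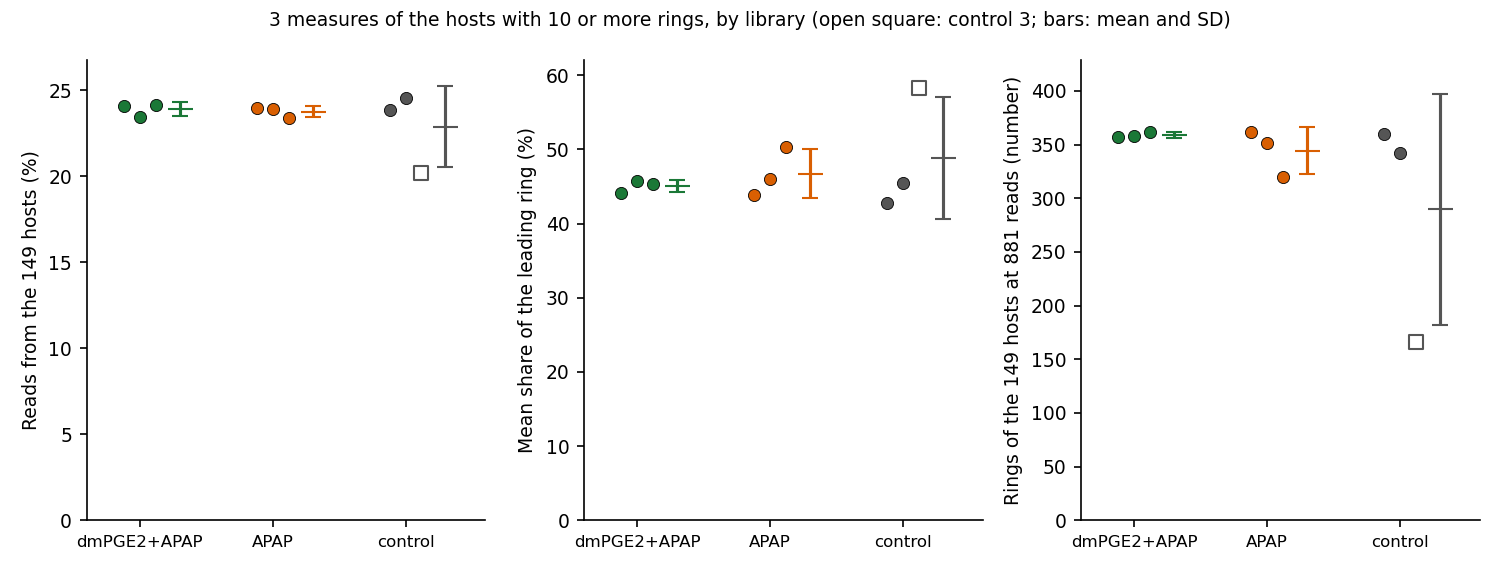
Share of reads from the 149 hosts (left, %), mean share of the leading ring over hosts with at least 20 reads (middle, %) and rings of the 149 hosts detected at 881 reads (right, number) in each library of the dmPGE2+APAP, APAP and control groups. Points are libraries, the open square is control 3, and bars are mean and SD (n = 3); apart from control 3 the groups overlap in all 3 panels.

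Many rings were read in few libraries. Of the 2092 rings, 848 were read in all 3 groups and held 93.1% of the reads of the 149 hosts. Rings read in 1 group alone numbered 322 in dmPGE2+APAP, 284 in APAP and 201 in control livers. The groups held 334424, 287388 and 288782 back-splice reads in that order, with 4362 of the last in control 3. The counts by group were not taken over all rings, so no group difference is read from them. In all, 729 rings (34.8%) were seen in 1 library, beside 39.6% of the rings of other hosts. Reads were a median of 18 per ring over all 9 libraries. Leading rings were read in all 8 libraries other than control 3 in 127 of 149 hosts.

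Next, each ring was compared between groups with edgeR's quasi-likelihood test on counts, over all 4331 rings with at least 5 reads in at least 3 libraries. Of the 2092 rings of the 149 hosts, 911 passed this filter. Between dmPGE2+APAP and APAP livers 1 of the 911 had an adjusted p under 0.05, against 0.0693% of all rings tested. Between dmPGE2+APAP and control livers 1 did, against 0.115%, and between APAP and control livers 2 did, against 0.139%. At an unadjusted p under 0.05, the counts were 36, 34 and 44 of 911 in those comparisons (3.95%, 3.73% and 4.83%), and 165, 188 and 224 of all 4331 rings (3.81%, 4.34% and 5.17%). The share of called rings in the 149 hosts was therefore near the background. The comparisons share groups and are not independent.

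The called rings belong to Erc1 and Scp2, and neither is the leading ring of its host. Ring novel_circ_0011754 of Erc1, a scaffold of vesicle tethering, joins exons 2 to 3 (chr6:119824386-119825819, minus strand) and had 0, 43 and 47 reads in the dmPGE2+APAP libraries, 25, 0 and 42 in the APAP libraries, and 0, 0 and 0 in the control libraries. Against a floor of 3 reads over the control group, it was 25.9-fold higher in dmPGE2+APAP than in control livers (adjusted p = 0.000110, edgeR). On the same floor it was 22.4-fold higher in APAP than in control livers (adjusted p = 0.000230, edgeR). These folds are minimums only if the group listed at 0 held no more than 3 reads, which is not known. Each treated group also held a library with 0 reads. The ring passed the read filter through treated libraries alone, the groups in which it was higher, so its p-values carry that selection. Ring novel_circ_0009634 of Scp2, of exons 13 to 14 (chr4:108055439-108063988), had 55, 0 and 52 reads in the dmPGE2+APAP libraries, 0, 0 and 0 in the APAP libraries, and 51, 0 and 0 in the control libraries. Against a floor of 3 reads over the APAP group, it was 30.7-fold higher in dmPGE2+APAP than in APAP livers (adjusted p = 0.000138, edgeR). On the same floor it was 16.9-fold lower in APAP than in control livers (adjusted p = 0.00592, edgeR), where 1 control library held all reads. The same limit on minimum folds applies. This ring passed the read filter through dmPGE2+APAP and control libraries alone, so its p-values against APAP livers carry the same selection. Without control 1 the adjusted p of the Erc1 ring was 0.180 in dmPGE2+APAP and 0.190 in APAP against control livers (edgeR), and without APAP 3 it was 0.0882 in APAP against control livers. The Scp2 ring fell below the read filter without control 1, dmPGE2+APAP 1 or dmPGE2+APAP 3. In APAP against control livers its adjusted p was 0.135 without APAP 1 and 0.0955 without APAP 2 (edgeR).

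Both rings belong to a small set listed at 0 where reads would have been likely from the other libraries. By a criterion chosen after the data were seen, 16 of 1047 rings (1.53%) with reads in at least 3 of the 8 deeper libraries were listed at 0 in at least 1 of these libraries although the mean CPM of the libraries that list it would give at least 20 reads. In other hosts 94 of 3886 rings (2.42%) were, and among leading rings 3 of 149. Another example is ring novel_circ_0011331 of Tbc1d14, a regulator of autophagy, with 0, 52 and 0 reads in the dmPGE2+APAP libraries, 57, 0 and 46 in the APAP libraries, and 85, 73 and 0 in the control libraries. The smallest count above 0 in the table is 2, so a listed 0 need not mean that no read was present. The part of this pattern in the 2 calls was not tested.

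Summed over all rings, the output of most hosts differed little between groups. All 149 host sums were tested among 2295 hosts with edgeR's quasi-likelihood test. Between dmPGE2+APAP and APAP livers 0 of the 149 had an adjusted p under 0.05, against 0.0871% of all hosts, with 3 of 149 (2.01%) at an unadjusted p under 0.05, beside 2.70% of all hosts. Between dmPGE2+APAP and control livers it was 0, against 0.174%, with 5 (3.36%) at an unadjusted p under 0.05, beside 4.14%. DESeq2 and limma-voom also called none of the 149 in these comparisons. Between APAP and control livers 1 was called, against 0.261%, with 4 (2.68%) at an unadjusted p under 0.05, beside 5.14%. The median log2 fold change of the 149 was 0.07, 0.18 and 0.09 in the 3 comparisons, beside 0.04, 0.19 and 0.14 over all hosts tested. Without control 3 the medians of the 149 were 0.06, −0.01 and −0.08, so their sign against control depended on that library. In that fit 5 (3.36%), 14 (9.4%) and 9 (6.04%) of the 149 had an unadjusted p under 0.05 (edgeR). The shares of all hosts were 3.22%, 3.66% and 5.05%. Against control, the unadjusted share of the 149 thus also depended on control 3, while 0, 0 and 1 passed after adjustment. The median size of the log2 fold change was 0.21, 0.25 and 0.23 for the 149, and 0.45, 0.51 and 0.55 over all hosts, which also have fewer reads.

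The hosts nearest to the threshold in the comparisons with no call, beside Arhgap10, were these. In dmPGE2+APAP against APAP livers, the endosomal ubiquitin ligase Rnf13 had a log2 fold change of 0.91 (SE 0.45) and Lpin1, a phosphatidate phosphatase of lipid synthesis, 0.98 (SE 0.49). Lpin1 had 655, 605 and 828 CPM in the dmPGE2+APAP libraries, against 387, 466 and 202 CPM in the APAP libraries, and the groups did not overlap. In dmPGE2+APAP against control livers, the motor protein gene Myo1e had 0.84 (SE 0.38) and Fkbp5, a co-chaperone of steroid receptors, 0.97 (SE 0.48). Myo1e had 1261, 1342 and 1202 CPM in the dmPGE2+APAP libraries, against 758, 731 and 688 CPM in the control libraries, again with no overlap. The 688 CPM of control 3 come from a library of 4362 reads in all, so few reads lie behind this value. None of these passed, with edgeR adjusted p-values of 1.00. These hosts were picked by their small p-values, so the lack of overlap in CPM adds nothing to the test. How many of all hosts separate in this way was not counted.

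The called host was Arhgap10, a GTPase-activating protein. Its 11 rings (gene at chr8:77250366-77517953, minus strand) summed to 1410, 1029 and 1054 CPM in the dmPGE2+APAP libraries, 1831, 2439 and 1891 CPM in the APAP libraries, and 809, 516 and 688 CPM in the control libraries. All APAP libraries were above all others. The log2 fold change of APAP against control was 1.66 (SE 0.36, edgeR adjusted p = 0.00634), and of dmPGE2+APAP against APAP −0.79 (SE 0.33, edgeR adjusted p = 1.00). Without control 2 the adjusted p for APAP against control was 0.139, and without APAP 2 it was 0.138. The CPM of control 3 rests on 3 reads. All 6 of its tested rings were higher in APAP than in control livers, by log2 fold changes of 1.36 to 3.10, and none passed alone. The leading ring of exons 14 to 18 had 84, 48 and 51 reads in the dmPGE2+APAP libraries, 77, 86 and 72 in the APAP libraries, and 83, 23 and 0 in the control libraries.

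None of 6 well read hosts, Aass, Gigyf2, Bckdhb, Ghr, Vwa8 and Cps1, passed the host sum test in edgeR in any comparison. Aass had 12319 ± 1864 CPM in dmPGE2+APAP, 14641 ± 2282 CPM in APAP and 13396 ± 1873 CPM in control livers (SD, n = 3 each). Gigyf2 had 12711 ± 625, 13424 ± 132 and 12738 ± 2102 CPM in the same groups. Bckdhb had 8709 ± 797, 8648 ± 449 and 11358 ± 2292 CPM. Its 3 control libraries (9764, 10325 and 13984 CPM) lay above all 6 treated ones on this scale, which uses library totals alone. The edgeR test also applied TMM scaling. In the fit of single rings the TMM factor was 2.09 for control 3, against 0.882 for control 1 and 0.892 for control 2. Whether the Bckdhb libraries still separate after TMM scaling was not tested, so no group difference is read from their order. Ghr had 9754 ± 728, 9400.1 ± 833 and 8433 ± 2937 CPM. Vwa8 had 5360.4 ± 665, 4735 ± 550 and 4046 ± 2512 CPM, with 5 reads in control 3. Cps1 had 1054 ± 216 CPM in dmPGE2+APAP, 1061 ± 232 CPM in APAP and 507 ± 444 CPM in control livers, with 0 reads in control 3. Its log2 fold change against control was 0.67 (SE 0.39) in dmPGE2+APAP and 0.64 (SE 0.40) in APAP livers, and neither passed the test in edgeR (adjusted p = 1.00 and 0.984).

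Whether rings of 1 host changed by different amounts was tested with edgeR's diffSpliceDGE over the 900 hosts with at least 2 tested rings, 144 of them among the 149. In none of the 3 comparisons did a host pass an adjusted p of 0.05, so the background was 0.0% in each. At an unadjusted p under 0.05, 7, 5 and 8 of the 144 were counted between dmPGE2+APAP and APAP, dmPGE2+APAP and control, and APAP and control livers, beside 40, 39 and 47 of all 900. Erc1 came nearest against control, with adjusted p-values of 0.365 in dmPGE2+APAP and 0.388 in APAP livers from edgeR. The next were the zinc finger gene Zfp644 in both, Rbm33 in dmPGE2+APAP and the remodeler Smarca2 in APAP livers against control, and Phf3, Scp2 and the co-repressor Ncor1 in dmPGE2+APAP against APAP livers. For Vwa8, with 21 tested rings, the unadjusted p-values were 0.975, 0.912 and 0.733 in the same order of comparisons (edgeR). A p that misses the threshold does not show that the rings of a host changed alike, since single rings had wide errors, with median SEs of 1.51 to 1.55 log2 units over the 911 rings.

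Fold changes of sister rings, the rings of 1 host, scattered about as much as those of all rings of these hosts together. Over the 907 tested rings of these 144 hosts, the SD of log2 fold changes within hosts was 1.67 between dmPGE2+APAP and APAP, 1.77 between dmPGE2+APAP and control, and 1.88 between APAP and control livers. Over all 907 rings it was 1.70, 1.78 and 1.90. Hosts whose rings had mixed signs numbered 118, 126 and 130 of 144. These values include rings of few reads, so they were also computed for the 287 rings of 85 hosts with reads in all 8 libraries other than control 3, fitted without control 3, a choice made after the data were seen. The SD within hosts was then 0.43, 0.56 and 0.58, and over all 287 rings 0.47, 0.55 and 0.61. The median SE of such rings was 0.50 to 0.56, about as wide as the scatter. Signs were mixed in 55, 60 and 56 of the 85 hosts. All rings of a host were higher in 21, 14 and 10 hosts, and all were lower in 9, 11 and 19.

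Pairs of sister rings in this set were also split by whether they share a site. The median difference in log2 fold change between 2 sister rings was 0.32, 0.40 and 0.37 for 107 pairs with a shared acceptor, in the same order of comparisons. It was 0.52, 0.45 and 0.49 for 68 pairs with a shared donor, and 0.40, 0.52 and 0.54 for 297 pairs with no shared site. Pairs on a shared acceptor had the same sign in 54.2%, 53.3% and 65.4% of cases, pairs on a shared donor in 54.4%, 58.8% and 52.9%, and pairs with no shared site in 54.5%, 53.5% and 51.2%. These pairs overlap in rings and hosts and differ in reads, and they are given as a description.

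Single hosts show both patterns. Of the 13 rings of Vwa8 in this set, 9 were higher and 4 lower in dmPGE2+APAP than in APAP livers, 3 higher and 10 lower in dmPGE2+APAP than in control, and 4 higher and 9 lower in APAP than in control. Of the 8 rings of Ghr, 5, 5 and 4 were higher in those comparisons. All 5 rings of Bckdhb were lower in APAP than in control livers, with log2 fold changes of −0.93 to −0.05. All 5 were higher in dmPGE2+APAP than in APAP livers, by 0.07 to 0.25, with SEs of 0.16 to 1.27. These 2 comparisons share the APAP livers and are not independent. The host sum of Bckdhb did not pass in either comparison, with log2 fold changes of −0.19 (SE 0.21) and 0.04 (SE 0.21) over all 9 libraries. In dmPGE2+APAP against control livers, 2 of the 5 Bckdhb rings were higher and 3 lower. All 6 rings of Ehmt1 were below 0 in dmPGE2+APAP against control livers, at −0.65 to −0.02. In APAP against control livers 3 of the 6 were higher, and in dmPGE2+APAP against APAP livers 1 was. Whether such one-sided hosts exceed what signs at random would give was not tested.

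**Figure D5:**
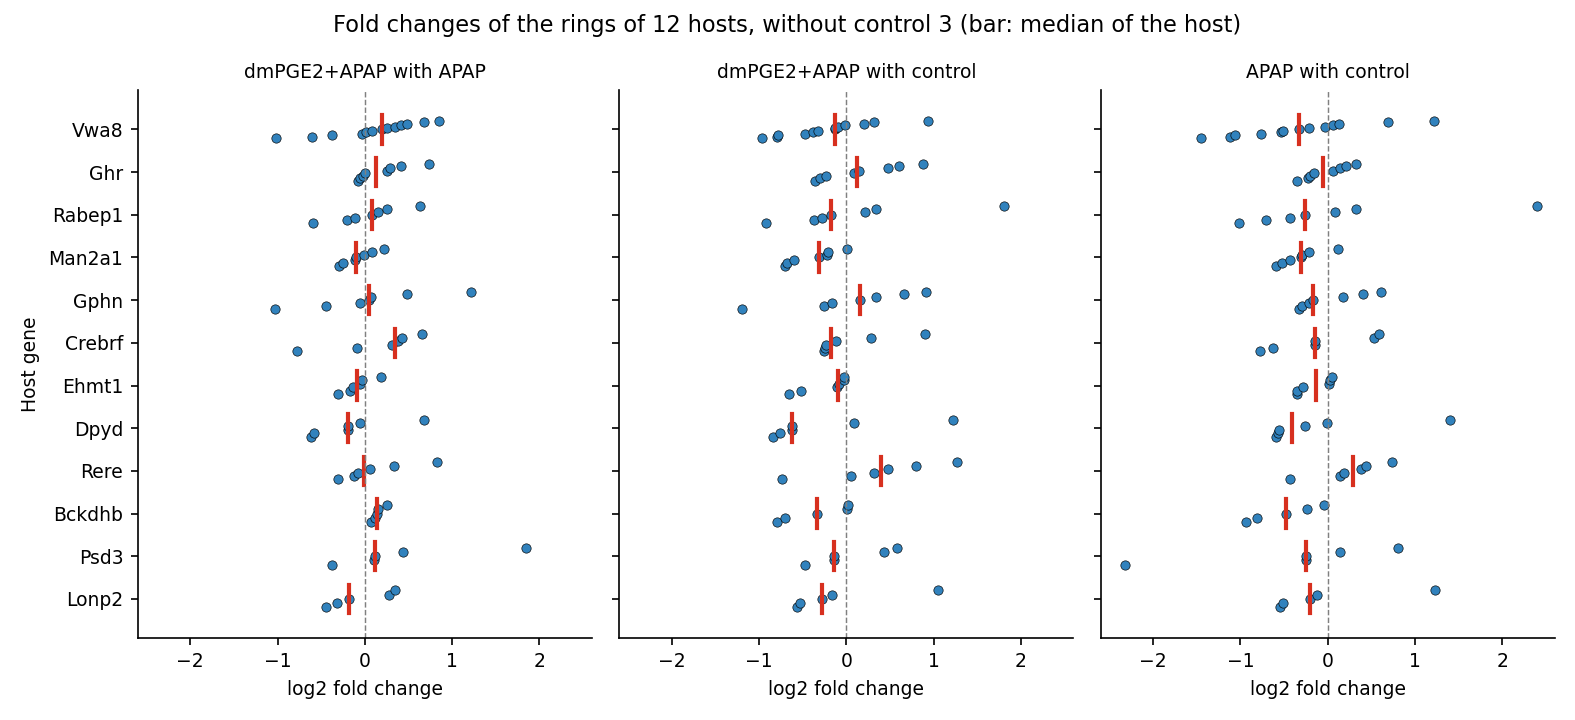
Log2 fold changes (horizontal axis) of the rings read in all 8 libraries other than control 3, fitted without it, for 12 hosts (vertical axis) in dmPGE2+APAP against APAP, dmPGE2+APAP against control and APAP against control livers. Each point is 1 ring and the red bar is the median of the host; the rings of most hosts lie on both sides of 0, while the 5 rings of Bckdhb lie on 1 side in the outer panels.

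By function, 90 of the 149 hosts fell into 12 lists of genes. Chromatin and transcription was the list with the most, 18 hosts with 291 rings, among them Ehmt1, Ash1l and Chd2. Membrane traffic and autophagy had 13 hosts with 178 rings, such as Rabep1, Ap3b1 and Erc1. Protein and lipid kinases had 10 hosts with 141 rings, among them Pik3c2a, which makes phosphoinositides on endosomes, the growth factor receptor Egfr and the stress kinase Map3k5. Ubiquitin ligases and deubiquitinases also had 10 hosts, with 136 rings, and small GTPase regulators had 9 with 119. Membrane transporters had 9 hosts with 116 rings, among them Slc4a4 and the canalicular exporters Abcc2 and Abcb11, for organic anions and for bile salts. Amino acid breakdown and the urea cycle had 5 hosts with 87 rings, Cps1, Aldh1l1, Aass, Pcca and Bckdhb. Cytoskeleton, junctions and matrix had 7 hosts with 95 rings, and RNA-binding and splicing factors 4 with 59. Lipid and bile acid metabolism had 3 hosts, Scp2, Abcb11 and Lpin1, with 43 rings. Drug and aldehyde metabolism held Dpyd alone with 29, and secreted plasma proteins held Alb and Pzp, with 23 rings.

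Within these lists few members passed a test. In membrane traffic and autophagy 1 of 76 tested rings was higher against control in both dmPGE2+APAP and APAP livers, the ring of Erc1. In lipid and bile acid metabolism 1 of 18 tested rings passed, that of Scp2, higher in dmPGE2+APAP than in APAP livers and lower in APAP than in control. In small GTPase regulators 1 of 9 host sums passed, Arhgap10, higher in APAP than in control. In the other 9 lists, with 66 hosts and 394 tested rings, no ring and no host sum passed edgeR's test in any comparison. At an unadjusted p under 0.05 there were 17 rings (4.31%) and 1 host sum (1.52%) in dmPGE2+APAP against APAP, beside 3.81% of all rings and 2.70% of all hosts. In dmPGE2+APAP against control there were 18 rings (4.57%) and 2 host sums (3.03%), beside 4.34% and 4.14%, and in APAP against control 21 (5.33%) and 3 (4.55%), beside 5.17% and 5.14%. The 18 chromatin hosts had median log2 fold changes of 0.08, 0.20 and −0.02 in dmPGE2+APAP against APAP, dmPGE2+APAP against control and APAP against control, beside 0.04, 0.19 and 0.14 over all hosts. The 5 amino acid and urea cycle hosts had 0.02, 0.10 and 0.30. Of the 12 lists, the medians farthest from those of all hosts were 0.92, 0.62 and −0.15 for the 3 lipid and bile acid hosts and −0.26, 0.96 and 1.23 for Alb and Pzp, lists in which no host sum passed. Alb, the albumin gene, had 13 rings but 134 reads, with rings listed on both strands, and its leading ring of exons 8 to 9 held 28 reads or 20.9%. Summed CPM of the 5 hepatocyte markers ran from 11907 to 15581 in dmPGE2+APAP, from 14125 to 18727 in APAP and from 12211 to 14901 in control livers, and most of it was Aass. The part of these levels in the results was not tested. Alb alone had 290, 0 and 192 CPM in the dmPGE2+APAP libraries, 239, 247 and 173 CPM in the APAP libraries, and 25.9, 61.6 and 0 CPM in the control libraries. Its APAP libraries lay above its control libraries, and its host sum did not pass in edgeR (log2 fold change of 2.40, SE 1.13, adjusted p = 0.895).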

How the data were processed

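Back-splice read counts per circRNA and library were deposited by the authors in 1 table, with the position, class, exon list and host gene of each ring. HISAT2 and GRCm38 (mm10) are named in the submitters' processing notes, with no step given. The circRNA caller is not given in the sources used here. The 9 per-sample columns of TPM were not used, and 2 further per-sample list columns were not used.

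Hosts were counted over rings with 1 named gene. Deposited starts are 0-based and were raised by 1. Ends were matched to exons of GENCODE M21, using for each host the transcript that most rings matched. Counts were tested with edgeR 4.0.16 in R 4.3.3 (TMM scaling, at least 5 reads in at least 3 libraries, all 9 libraries in 1 fit, Benjamini-Hochberg adjustment over all rings or hosts). The procedure was also run on simulated counts of lower dispersion than the 0.994 estimated for these rings. That run therefore does not show how the test behaves at the spread of these data. SEs of edgeR fold changes are the size of the log2 fold change over the square root of the quasi-likelihood F statistic. They were not taken from the fit and are approximate. Total circRNA reads were the library sizes. Alternatives were no TMM scaling, other read minimums, the replicate number as a block, each library left out, DESeq2 1.42.0 and limma-voom (limma 3.58.1). Deviations from group means were nearly uncorrelated between libraries of different groups, same-numbered or not (correlations of −0.035 to 0.040). This check gave no sign that numbers pair samples and cannot exclude it, since the control columns are not tied to single samples. The main fit used no pairing.

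Named hosts are the 12 with the most rings, the 8 with the highest CPM, the 5 with the highest and the 5 with the lowest leading share among hosts with at least 200 reads, those of the 6 most reused sites, all that passed a test or else the 3 smallest p-values, and the 3 with the most rings per list; others are said to be chosen after their values were seen or are given as examples at the edge of the rule. The hosts and lists were chosen with earlier results of these data known. Depth limits single rings: libraries held 4362 to 154449 reads, and intervals would cover counting error only, since reads carry no molecular identifiers. Some hosts and sequences that these rules name are not reported here.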

Additional observations from a re-analysis of the deposited data

How the results depend on the processing

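The called rings depended on the processing. Of the rings of the 149 hosts, 1 passed in dmPGE2+APAP against APAP, 1 in dmPGE2+APAP against control and 2 in APAP against control. With at least 10 reads in at least 3 libraries the counts were 0, 0 and 0, and with limma-voom also 0, 0 and 0. With DESeq2 they were 0, 0 and 1, the last a ring of Arhgap10 (mmu_circ_0001691); it gave the Erc1 ring adjusted p-values of 1.00 and 0.760 against control and the Scp2 ring none. Without TMM scaling the count in dmPGE2+APAP against control was 2, with a ring of Zfp644 added. With the replicate block the count in APAP against control was 1, and no other count of calls changed. Leaving out each library in turn gave 0 to 2, 0 to 3 and 0 to 3 rings. The Scp2 ring was not tested without control 1, dmPGE2+APAP 1 or dmPGE2+APAP 3, since it then had reads in 2 libraries, and it did not pass against control without APAP 1 or APAP 2. The Erc1 ring did not pass without control 1, or, for APAP against control, without APAP 3. For host sums, Arhgap10 in APAP against control gave 1 call, 0 with limma-voom and 0 to 1 with a library left out. Ring usage gave 0 to 1 calls with a library left out in APAP against control and in dmPGE2+APAP against control. The causes of these changes were not tested beyond the filter. Host sums in the other comparisons and the 3 library measures kept their side of the threshold in the alternatives run, with exact p-values of the measures from 0.05 (rings at equal depth, without control 1) to 0.975.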
